A study of Mus musculus with 4 samples.

Results

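The D-type cyclins, their kinase partners CDK4 and CDK6, and the pocket proteins form the switch that lets a cell leave G1. The 8 genes described here are Ccnd1, Ccnd2 and Ccnd3 (cyclins), Cdk4 and Cdk6 (kinases), and Rb1, Rbl1 and Rbl2 (pocket proteins Rb, p107 and p130). They were taken as a named list, found by symbol in the authors' deposited table of a comparison and joined by Ensembl identifier to the count files. All 8 were found among the 49585 genes of those files, and all 8 passed the low-count filter that left 15078 genes.

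RNA was sequenced, with strand kept, from 4 samples of C2C12, a mouse myoblast line of C3H origin, proliferating in medium with 10% serum. In 2 samples C/EBPβ, the transcription factor made from Cebpb, was overexpressed from a retrovirus, and 2 held the empty retroviral vector (pLXSN). Cells of both groups were transduced, selected in 1200 μg/ml G418 for 7 days and left to proliferate as pools of stable cells for 48 h. Whether replicates are separate transductions is not given in the labels. The p-values therefore speak of the spread among these libraries alone, and that spread may be technical. The libraries held 38656497 and 92027838 counts for C/EBPβ, and 40912955 and 37566321 counts for the empty vector.

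D-type cyclins are made in response to growth factors and bind CDK4 or CDK6. The active kinases phosphorylate the pocket proteins, which then release E2F transcription factors and allow the genes of DNA replication to be transcribed. In muscle, pocket proteins are needed for the lasting exit from the cycle that goes with myotube formation, cyclin D1 is known to oppose the muscle determination factor MyoD, and cyclin D3 is the D-type cyclin that persists in differentiating myotubes. C/EBPβ is known in muscle stem cells for keeping them undifferentiated.

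Cebpb itself stood at 483 and 473 CPM in the C/EBPβ libraries, against 85.0 and 76.8 CPM in the empty vector libraries. CPM are counts scaled to a common library size, with the TMM factors of edgeR applied. Its log2 fold change, C/EBPβ over empty vector, was 2.56 (SE 0.09, adjusted p = 3.03e-06), and reads of the vector-borne copy that map to this gene are included in it. All adjusted p-values of genes are from the quasi-likelihood test of edgeR with Benjamini-Hochberg adjustment over the 15078 genes, and a gene was called at an adjusted p below 0.05. All 6 myoblast markers were detected in every library, with summed levels of 1498 and 1752 CPM in C/EBPβ cells and 2709 and 2956 CPM in empty vector cells. Of these 6, 2 rose, Myf5 (log2 fold change 0.60, adjusted p = 0.00179) and Pax7 (0.94, adjusted p = 0.00248), and 4 fell. The 9 myotube markers summed to 36.0 and 54.9 CPM in C/EBPβ cells, against 203 and 198 CPM in empty vector cells, and all 9 fell. Macrophage and leukocyte markers summed to 7.37 and 7.68 CPM in C/EBPβ cells against 5.82 and 5.19 CPM in empty vector cells, with Tyrobp, Itgam and Adgre1 at 0 counts in every library. The 5 endothelial markers summed to less than 1 CPM in every library, and the 5 adipocyte markers to 33.2 and 27.5 CPM in C/EBPβ cells against 25.8 and 22.04 CPM in empty vector cells. Of the 2 adipocyte markers that could be tested, the fatty acid binding protein gene Fabp4 rose (5.34, adjusted p = 9.63e-05). It stood at 9.38 and 5.31 CPM in C/EBPβ cells against 0.243 and 0.106 CPM in empty vector cells. Pparg, the other, was not called (-0.048, adjusted p = 0.800). Its levels were 23.6 and 22.1 CPM in C/EBPβ cells against 25.5 and 21.8 CPM in empty vector cells.

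Of the 8 genes, Ccnd2, Cdk6 and Ccnd1 fell in C/EBPβ myoblasts, Rbl2 rose, and Ccnd3, Cdk4, Rb1 and Rbl1 did not pass the threshold. Across all genes tested, 24.9% were called, 14.1% higher and 10.8% lower. The number of called genes was 3759, and 2493 without C/EBPβ replicate 1. The median log2 fold change of the 8 genes was -0.28, against 0.00055 over all genes tested. The CPM of the groups did not overlap for 7 of the 8 genes, 1 higher and 6 lower with C/EBPβ, against 66.2% of all genes tested (33.3% higher, 32.9% lower), so such separation is common here. Depth did not limit these values, since the smallest count among the 8 genes was 572 (Ccnd2, C/EBPβ replicate 1).

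**Figure D1:**
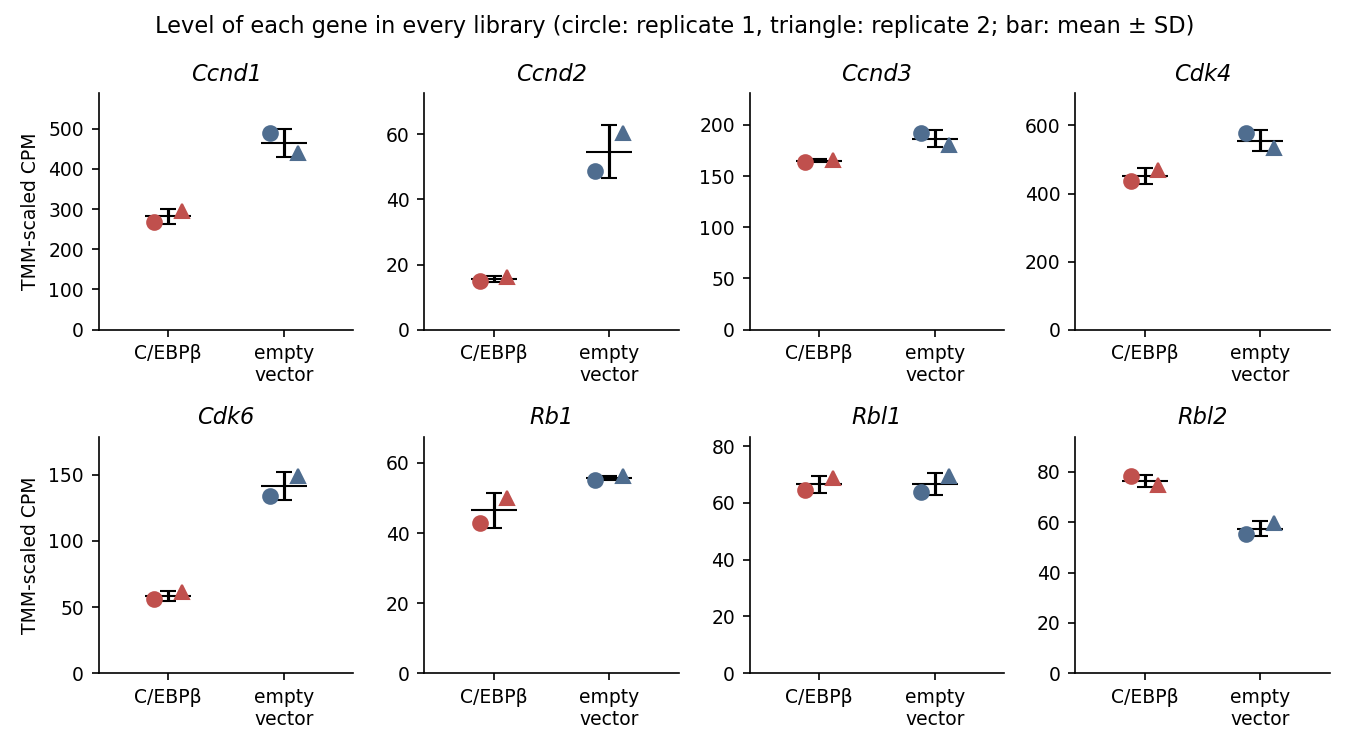
TMM-scaled CPM of each gene in every library, with C/EBPβ left and empty vector right; circles are replicate 1, triangles replicate 2, and bars the mean ± SD (n = 2). Ccnd2 stood at 14.99 and 16.3 CPM in C/EBPβ libraries against 48.8 and 60.4 CPM in empty vector libraries, while the libraries of the groups overlap for Rbl1.

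Ccnd1 (ENSMUSG00000070348), the D-type cyclin with the highest CPM here, spans chr7:144929931-144939925 (minus strand, GRCm38). It stood at 268 and 296 CPM in C/EBPβ libraries, against 489.9 and 439.9 CPM in empty vector libraries. Both C/EBPβ libraries were below both empty vector libraries, by a margin larger than the spread within either group. The means were 282 ± 19.2 CPM in C/EBPβ cells and 465 ± 35.3 CPM in empty vector cells (SD, n = 2 each), a log2 fold change of -0.72 (SE 0.10, 95% interval -0.95 to -0.49, adjusted p = 0.00121). The level in C/EBPβ cells was thus 0.607 times that in empty vector cells. Against a null of 1.5-fold, which called 8.35% of all genes (5.36% higher, 2.99% lower) and 2 of the 8 described here, Ccnd1 was not called (adjusted p = 0.270). Fewer transcribing cells and less RNA per cell cannot be told apart in such bulk libraries.

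Ccnd2 (ENSMUSG00000000184), a second D-type cyclin, spans chr6:127125162-127152193 (minus strand). It stood at 14.99 and 16.3 CPM in C/EBPβ libraries, against 48.8 and 60.4 CPM in empty vector libraries. Both C/EBPβ libraries lay far below both empty vector libraries. Its log2 fold change of -1.80 (SE 0.12, 95% interval -2.08 to -1.52, adjusted p = 4.03e-05) was the largest of the 8 in size, and the level was 0.287 times that of empty vector cells. Ccnd2 was called against the 1.5-fold null as well (adjusted p = 1.34e-04), and its log2 fold change lay between -1.95 and -1.64 when any 1 library was left out.

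Ccnd3 (ENSMUSG00000034165) spans chr17:47505051-47599691 (plus strand). It stood at 164 and 166 CPM in C/EBPβ libraries, against 192 and 181 CPM in empty vector libraries. The C/EBPβ values were the lower ones in both cases, but the gap was small. A log2 fold change of -0.18 (SE 0.08, 95% interval -0.36 to 0.01) did not pass (adjusted p = 0.156). The interval of Ccnd3 did not overlap those of Ccnd1 or Ccnd2, and those of Ccnd1 and Ccnd2 did not overlap either, but the differences between their fold changes were not tested.

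Cdk6 (ENSMUSG00000040274) spans chr5:3341485-3531008 (plus strand) and encodes the less abundant kinase of the pair. It stood at 55.9 and 61.3 CPM in C/EBPβ libraries, against 134 and 149 CPM in empty vector libraries. The groups were well apart, with means of 58.6 ± 3.81 CPM in C/EBPβ cells and 142 ± 10.3 CPM in empty vector cells (SD, n = 2 each). The log2 fold change was -1.27 (SE 0.09, 95% interval -1.48 to -1.06, adjusted p = 5.54e-05, and 4.78e-04 against the 1.5-fold null), which leaves 0.414 times the level of empty vector cells.

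Cdk4 (ENSMUSG00000006728), the main partner of the D-type cyclins here by RNA level, spans chr10:127063534-127067920 (plus strand). It stood at 436 and 469 CPM in C/EBPβ libraries, against 578 and 533 CPM in empty vector libraries. The C/EBPβ libraries were both lower, but the log2 fold change of -0.30 (SE 0.10, 95% interval -0.52 to -0.08) stayed just outside the threshold (adjusted p = 0.0540). It was inside it in DESeq2 (adjusted p = 0.0123), in limma-voom (0.0409), with libraries scaled by their totals only (0.0485) and with no low-count filter (0.0309). It stayed outside with edgeR on the size factors of DESeq2 (adjusted p = 0.0522) and with a filter of 5 CPM in 2 samples (0.0635). With 1 library left out, the log2 fold change of Cdk4 ran from -0.36 to -0.24. The interval of Cdk6 did not overlap that of Cdk4.

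The RefSeq promoter table (GRCm38.p6) holds windows for 5 of the 8 genes, Ccnd3, Cdk4, Cdk6, Rbl1 and Rbl2. The 250 bases before the RefSeq starts of the kinase genes are shown because one kinase fell strongly and the other did not pass. The Rbl1 window is shown because the gene is a textbook E2F target and hardly moved. The Cdk4 window ends at the first base of the Cdk4 span given above. The Cdk6 window lies inside the Cdk6 span, so the kinase windows are not placed alike relative to the genes as counted. Capitals mark CACGTG, the E-box bound by Myc, and TTTNNCGC, a loose form of the E2F site in which N is any base. Each was searched on both strands.
Cdk4, chr10:127063285-127063534, plus strand: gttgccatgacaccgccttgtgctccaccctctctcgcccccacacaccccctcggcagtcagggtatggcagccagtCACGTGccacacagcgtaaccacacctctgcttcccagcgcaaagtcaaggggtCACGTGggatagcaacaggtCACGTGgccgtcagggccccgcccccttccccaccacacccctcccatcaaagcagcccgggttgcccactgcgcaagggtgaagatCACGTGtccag
Cdk6, chr5:3343643-3343892, plus strand: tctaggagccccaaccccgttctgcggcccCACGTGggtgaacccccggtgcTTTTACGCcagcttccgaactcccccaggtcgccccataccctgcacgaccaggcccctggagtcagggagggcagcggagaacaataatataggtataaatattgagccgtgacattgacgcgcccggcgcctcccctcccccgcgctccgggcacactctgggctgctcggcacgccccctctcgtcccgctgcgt
Rbl1, chr2:157204535-157204784, minus strand: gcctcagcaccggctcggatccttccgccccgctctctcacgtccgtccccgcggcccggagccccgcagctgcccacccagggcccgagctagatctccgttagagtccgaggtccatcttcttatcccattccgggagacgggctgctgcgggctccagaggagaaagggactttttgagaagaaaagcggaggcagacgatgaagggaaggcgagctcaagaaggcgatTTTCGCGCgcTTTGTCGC
The Cdk4 window holds 4 E-boxes of the Myc type, whose first bases lie at -172, -118, -98 and -11 relative to the start, and the Cdk6 window holds 1, at -220. Of all 32817 promoter windows of this length, 6.02% hold at least 1. The letters of the loose E2F form occur at -198 in Cdk6 and at -18 and -8 in Rbl1, and in 4.28% of all windows. The C/EBP core TTGCNNAA, found in 9.57% of all windows, is not among the letters of the windows of the 5 genes. Also searched, but not marked above, were CAGCTG, the E-box of the MyoD type, and TTTGAA, the CHR element. CAGCTG occurs at -183 in Rbl1, and in 13.0% of all windows. TTTGAA occurs at -201 in Rbl2, and in 16.0% of all windows. Such matches are a description of the letters and not of binding. Myc, whose product binds the E-box, stood at 76.8 and 64.7 CPM in C/EBPβ libraries and 63.9 and 53.4 CPM in empty vector libraries (log2 fold change 0.27, adjusted p = 0.136, 0.39 with adjusted p = 0.0407 without C/EBPβ replicate 2, and 0.28 with adjusted p = 0.0492 with no low-count filter).

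Rbl2 (ENSMUSG00000031666), which encodes p130, the pocket protein known for repressing cell cycle genes in resting cells together with E2F4, was the only one of the 8 genes that rose. It spans chr8:91070057-91123844 (plus strand). It stood at 78.2 and 74.8 CPM in C/EBPβ libraries, against 55.3 and 59.6 CPM in empty vector libraries. Both C/EBPβ libraries were above both empty vector libraries. Its log2 fold change was 0.41 (SE 0.08, 95% interval 0.22 to 0.60, adjusted p = 0.00809), a level 1.33 times that of empty vector cells. It did not pass when C/EBPβ replicate 1 was left out (0.38, adjusted p = 0.0579), nor against the 1.5-fold null (adjusted p = 1).

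Rb1 (ENSMUSG00000022105), the retinoblastoma gene, spans chr14:73183673-73325822 (minus strand). It stood at 42.9 and 50.03 CPM in C/EBPβ libraries, against 55.3 and 56.2 CPM in empty vector libraries. The C/EBPβ libraries were both lower, but differed more from each other than the empty vector libraries did. With a log2 fold change of -0.26 (SE 0.10, 95% interval -0.48 to -0.04, adjusted p = 0.0879) Rb1 did not pass, and the value was -0.16 without C/EBPβ replicate 1.

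Rbl1 (ENSMUSG00000027641), which encodes p107, spans chr2:157145893-157204534 (minus strand). It stood at 64.5 and 68.8 CPM in C/EBPβ libraries, against 63.8 and 69.4 CPM in empty vector libraries, so that the groups overlapped. The log2 fold change was 0.0023 (SE 0.09, adjusted p = 0.987), with a 95% interval of -0.19 to 0.20 that reflects the spread among these libraries alone. Its sign turned to -0.017 with libraries scaled by their totals only, to -0.046 without C/EBPβ replicate 2 and to -0.059 without empty vector replicate 1. The intervals of Rbl2 and Rb1, which are per gene and not adjusted over genes, lay on opposite sides of 0, though Rb1 did not pass.

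**Figure D2:**
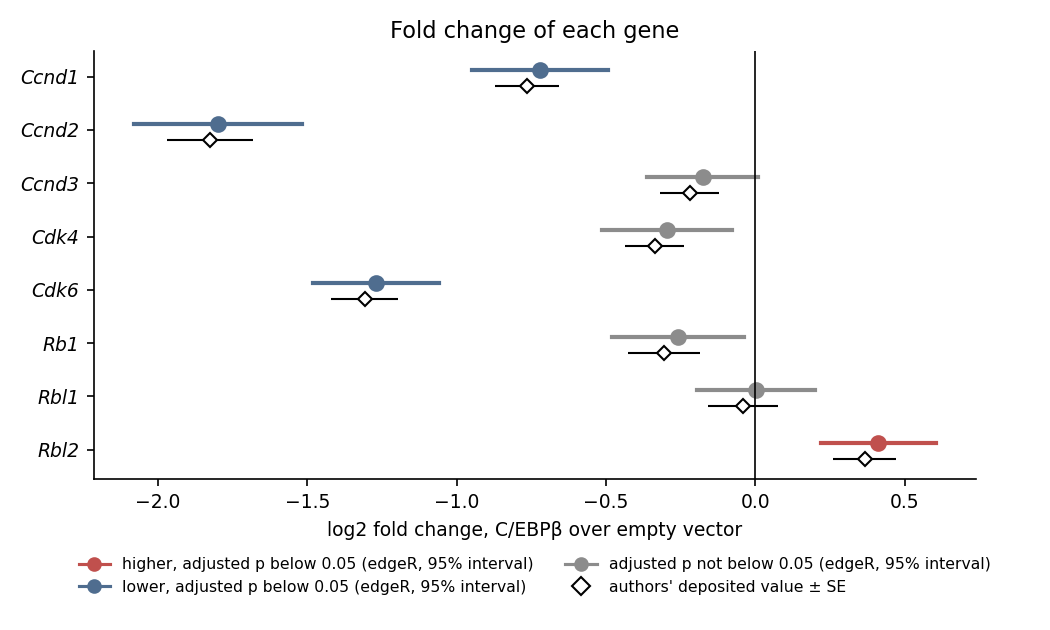
Log2 fold change of each gene, C/EBPβ over empty vector, with its 95% interval from edgeR (filled circles, coloured by call) and the value of the authors' deposited table with its SE (open diamonds). The intervals of Ccnd1, Ccnd2 and Cdk6 lie below -0.49, and that of Rbl2 above 0.22.

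The authors' deposited table of the comparison gave log2 fold changes of -0.76 for Ccnd1, -1.83 for Ccnd2 and -1.31 for Cdk6. In the authors' deposited table Rbl2 had 0.37, with an adjusted p of 0.00324. Cdk4 and Rb1 were below an adjusted p of 0.05 in the authors' deposited table, with -0.34 (adjusted p = 0.00401) and -0.31 (adjusted p = 0.0447). Ccnd3 and Rbl1 were not, at -0.22 (adjusted p = 0.0905) and -0.04 (adjusted p = 0.864) in the authors' deposited table. The direction given there was that of the fit reported here for each gene but Rbl1, whose value was near 0 in both. The mean level in the authors' deposited table was 10901 for Ccnd1 and 15333 for Ccnd3, whereas Ccnd1 had the higher CPM in every library here. The authors' fit may therefore rest on other samples too, and its values and calls are not shown to be like for like.

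Levels of different genes can be compared only per length, here as CPM per kilobase of the exonic length in the count files. That length joins all annotated exons of a gene, 8775 bases for Ccnd3 and 4709 for Ccnd1. Which transcripts were made was not tested, and the order of genes rests on these lengths. On this scale Ccnd1 was the main D-type cyclin and Cdk4 the main kinase in every library. Cdk4 led with 139 ± 7.12 in C/EBPβ cells and 171 ± 9.77 in empty vector cells, followed in both groups by Ccnd1 (59.9 ± 4.08 in C/EBPβ cells, 98.7 ± 7.503 in empty vector cells) and Ccnd3 (18.8 ± 0.141 in C/EBPβ cells, 21.3 ± 0.920 in empty vector cells). Rbl1 came next in both groups, at 11.1 ± 0.501 in C/EBPβ cells and 11.1 ± 0.656 in empty vector cells, and Ccnd2 was last, at 1.66 ± 0.0993 in C/EBPβ cells and 5.80 ± 0.872 in empty vector cells (SD, n = 2 each). In C/EBPβ cells the order between them was Rbl2, Rb1 and Cdk6, and in empty vector cells Cdk6, Rb1 and Rbl2. No neighbours in either order had overlapping libraries. The closest were Rbl1 and Rbl2 in C/EBPβ cells, 1.10-fold apart, and Cdk6 and Rb1 in empty vector cells, 1.09-fold apart, and in empty vector cells the lower Rbl1 library (10.65) was barely above the higher Cdk6 library (10.64).

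The summed level of the 3 D-type cyclins was 77.3 and 83.4 CPM per kilobase in C/EBPβ cells, against 131 and 120.4 in empty vector cells. Ccnd1 made up 74.5 ± 1.07% of this sum in C/EBPβ cells and 78.5 ± 1.26% in empty vector cells, and Ccnd2 2.07 ± 0.0123% in C/EBPβ cells and 4.64 ± 0.972% in empty vector cells (SD, n = 2 each). Ccnd3 made up 23.4 ± 1.08% in C/EBPβ cells and 16.9 ± 0.283% in empty vector cells, so the cyclin whose own level did not pass the threshold took a larger share of a smaller sum. The ratio of Cdk6 to Cdk4 per kilobase was 0.0298 and 0.0304 in C/EBPβ cells, against 0.0539 and 0.0648 in empty vector cells. Such ratios within a library do not depend on how libraries are scaled. Ratios, shares and sums over genes do depend on the lengths used, for the pocket proteins below as well. The sum of both kinases was 138 and 149 CPM per kilobase in C/EBPβ cells, against 188 and 175 in empty vector cells.

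The 3 pocket protein genes summed to 28.3 and 29.7 CPM per kilobase in C/EBPβ cells, against 27.2 and 28.8 in empty vector cells, and these ranges overlapped. Within that sum Rbl2 made up 34.98 ± 2.33% in C/EBPβ cells and 27.2 ± 0.311% in empty vector cells (SD, n = 2 each). Rb1 made up 26.6 ± 1.95% in C/EBPβ cells and 33.1 ± 1.001% in empty vector cells, and Rbl1 38.4 ± 0.387% in C/EBPβ cells and 39.7 ± 0.690% in empty vector cells. The ratio of Rbl2 to Rb1 was 1.45 and 1.19 in C/EBPβ cells, above 1 in both, and 0.797 and 0.845 in empty vector cells, below 1 in both. With 2 libraries a group, an exact test of these shares and ratios cannot pass the threshold, and none was run.

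**Figure D3:**
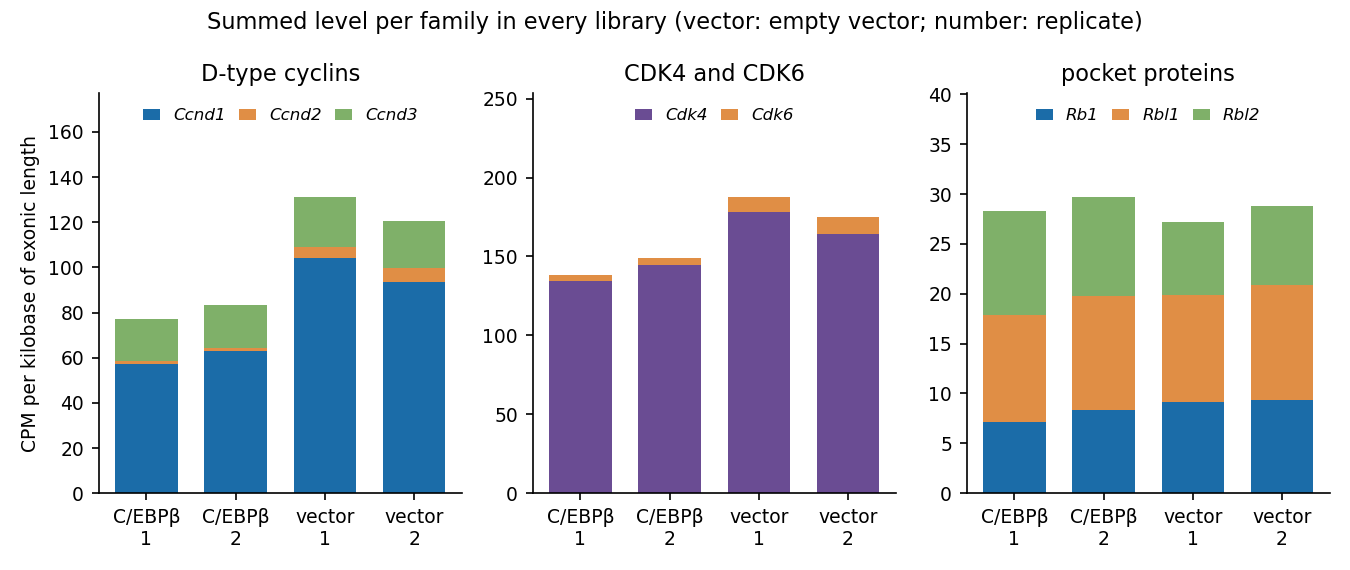
CPM per kilobase of exonic length, stacked by gene, for the D-type cyclins, the kinases and the pocket proteins in every library, with C/EBPβ libraries left of empty vector libraries. The cyclin sum stands at 77.3 and 83.4 with C/EBPβ and at 131 and 120.4 with the empty vector, while the pocket protein sums overlap.

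The CDK inhibitors hold these kinases in check. Of the 7 genes of the INK4 and Cip/Kip families 5 could be tested, of which 1 fell, 1 rose and 3 did not pass, where 10.8% of all genes tested fell and 14.1% rose. Their median log2 fold change was 0.20. Cdkn1a, which encodes p21 and is induced by MyoD and p53, stood at 122 and 134 CPM in C/EBPβ libraries, against 238 and 227 CPM in empty vector libraries (log2 fold change -0.86, SE 0.09, adjusted p = 2.97e-04). Cdkn1c, which encodes p57, stood at 3.98 and 3.67 CPM in C/EBPβ libraries, against 2.41 and 1.77 CPM in empty vector libraries (0.86, SE 0.21, adjusted p = 0.0168), and it did not pass when empty vector replicate 2 was left out (0.66, adjusted p = 0.0784). Cdkn1b (p27), Cdkn2c (p18) and Cdkn2d (p19) had log2 fold changes of 0.20, 0.20 and 0.20 (adjusted p = 0.0983, 0.131 and 0.173). Cdkn2d passed without empty vector replicate 1 (0.32, adjusted p = 0.0392). Cdkn2a (p16 and Arf) and Cdkn2b (p15) had 0 counts in all 4 libraries, which allows up to 0.0776 and 0.0326 CPM in the C/EBPβ libraries and 0.0733 and 0.0799 CPM in the empty vector libraries, at 3 counts per library and for counting error only.

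The pocket proteins bind some, not all, of the E2F transcription factors. Of the E2Fs and their DP partners, 4 of 10 tested members fell (10.8% of all genes tested fell). The median log2 fold change of the 10 was -0.18. E2f2, one of the activating E2Fs, stood at 14.1 and 23.3 CPM in C/EBPβ libraries, against 54.7 and 75.6 CPM in empty vector libraries (-1.78, SE 0.23, adjusted p = 8.71e-04). E2f4, the repressive partner of p130, stood at 51.0 and 54.7 CPM in C/EBPβ libraries, against 73.3 and 70.4 CPM in empty vector libraries (-0.44, SE 0.08, adjusted p = 0.00557). E2f8 (-0.48) and E2f6 (-0.29), both repressors, also fell and are named because they complete the count. Without C/EBPβ replicate 1, E2f2 was the only one called, and E2f4, E2f8 and E2f6 had adjusted p = 0.0527, 0.0748 and 0.230. E2f6 did not pass either with C/EBPβ replicate 2 left out (adjusted p = 0.158) or with empty vector replicate 1 left out (0.0908). For E2f1 the log2 fold change was 0.04 (adjusted p = 0.816), and its sign turned without C/EBPβ replicate 1 (-0.024) and without empty vector replicate 2 (-0.035).

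Among 10 genes that act on the D-type cyclins or on CDK4 and CDK6, 2 fell (20%, against 10.8% of all genes tested). The median log2 fold change of the 10 was -0.03. Cryab, a small heat shock protein that helps the ligase Fbxo4 recognise cyclin D1, stood at 168 and 175 CPM in C/EBPβ libraries, against 311 and 253 CPM in empty vector libraries (-0.72, SE 0.11, adjusted p = 0.00198). Cryab is also abundant in differentiating muscle. Mnat1, a subunit of the CDK-activating kinase, had -0.31 (adjusted p = 0.0250), which did not pass with C/EBPβ replicate 1 left out (adjusted p = 0.226), nor without C/EBPβ replicate 2 (0.0941) or empty vector replicate 1 (0.0569).

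Further down the pathway the differences were small. Of the later cyclins, CDKs and Cdc25 phosphatases 20% fell, of the E2F targets 14.3% and of the mitotic genes 8.33%. Of all genes tested 10.8% fell. Of 10 later cyclins, CDKs and Cdc25 phosphatases 2 fell, with a median of -0.18. These were Cdc25b (-0.40, adjusted p = 0.0116) and Ccne2, a cyclin E that E2Fs induce (-0.34, adjusted p = 0.0200), but with C/EBPβ replicate 1 left out they had adjusted p = 0.112 and 0.202 and did not pass. Nor did Ccne2 with empty vector replicate 1 left out (adjusted p = 0.0555). Of 21 E2F target genes of DNA replication 3 fell, with a median of -0.15 and a range of -0.31 to 0.13. Among them were Cdt1 (-0.31, adjusted p = 0.0239), which licenses origins, and Mcm3 (-0.27, adjusted p = 0.0461), a helicase subunit. Without C/EBPβ replicate 1 or without C/EBPβ replicate 2 no gene of this list was called, 1 was called without empty vector replicate 1 and 2 without empty vector replicate 2. Of 12 mitotic genes Bub1, a checkpoint kinase, fell (-0.34, adjusted p = 0.0392), but not without C/EBPβ replicate 1 (adjusted p = 0.239) or empty vector replicate 2 (0.120).

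The MuvB core, which joins p107 or p130 with E2F4 in the DREAM repressor complex, and its partners had 0 called genes of 7 by edgeR, DESeq2 and limma-voom, and 1 at an unadjusted p below 0.05. The most abundant of them were Rbbp4 (-0.23, adjusted p = 0.103) and Foxm1 (-0.12, adjusted p = 0.342). Over these 6 lists without the inhibitors, 12 of 70 tested genes fell (17.1%, against 10.8% of all genes tested) and 0 rose by edgeR, at an unadjusted p below 0.05, by DESeq2 or by limma-voom. Without C/EBPβ replicate 1 the count was 2 of 70 (2.86%, against 6.20% of all genes), and against the 1.5-fold null 1 of 70 (1.43%, against 2.99%), so the excess over all genes was not kept in either. One gene rose with no low-count filter or without C/EBPβ replicate 2 (Myc), and 2 rose without empty vector replicate 2 (Mki67 and Cenpe). The log2 fold change was below 0 in 56 of the 70 genes, against 49.9% of all genes tested, with a median of -0.12. Mki67, a proliferation marker, stood at 336 and 336 CPM in C/EBPβ libraries, against 238 and 331 CPM in empty vector libraries (0.24, adjusted p = 0.262, and 0.49 with adjusted p = 0.0138 without empty vector replicate 2), so that empty vector replicate 1 stood apart.

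**Figure D4:**
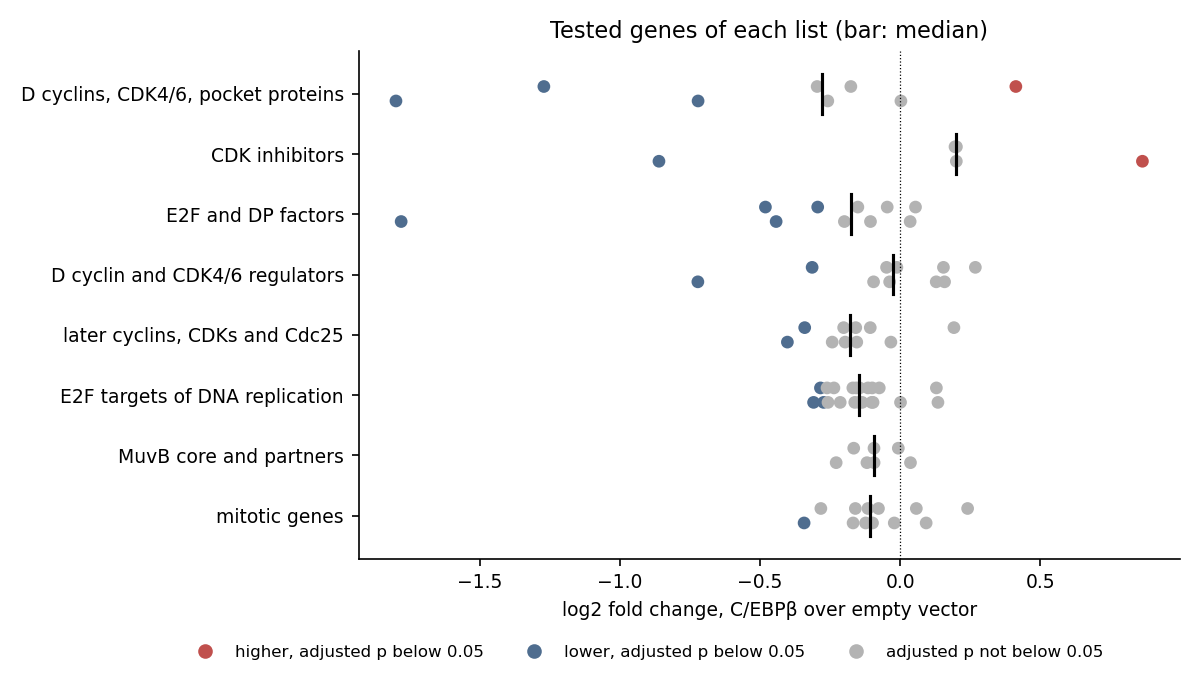
Log2 fold change, C/EBPβ over empty vector, of every tested gene of each list, coloured by call, with the list's median as a bar. Ccnd2 and E2f2 lie near -1.8, whereas the 21 E2F targets of DNA replication lie between -0.31 and 0.13.

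Muscle genes moved in the same libraries in both directions, Myf5 and Pax7 upwards as given above, and their part in these results was not tested. Myod1, the determination factor, stood at 129 and 137 CPM in C/EBPβ libraries, against 175 and 166 CPM in empty vector libraries (-0.36, adjusted p = 0.0151, and 0.152 without C/EBPβ replicate 1). Myog, which starts terminal differentiation, stood at 5.32 and 10.9 CPM in C/EBPβ libraries, against 61.0 and 51.4 CPM in empty vector libraries (-2.75, adjusted p = 2.39e-04). Acta1 and Tnni1, genes of the contractile apparatus, fell with log2 fold changes of -1.87 and -2.32.

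For each of the 8 genes, the protein-coding gene most like it over the 4 libraries was sought among 10239 genes averaging 5 CPM or more, as the smallest root mean square difference of centred log2 CPM. For Ccnd1 it was Panx1 (difference 0.0168, log2 fold change -0.70), for Ccnd2 Xirp1 (0.0691, -1.76) and for Cdk6 Mboat1 (0.0248, -1.23). For Cdk4 it was Rapsn (0.00436, -0.30), for Ccnd3 Ebna1bp2 (0.00293, -0.17), for Rb1 Hspa9 (0.00976, -0.27), for Rbl1 Tob2 (0.00378, -0.0052) and for Rbl2 Nod2 (0.0101, 0.40). With 4 libraries and so many genes close matches are found for any pattern, and they are a description only.

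The exons of none of the 8 genes share bases with another gene on the same strand, and 7 of them share some with a gene on the opposite strand, which strand-specific counting keeps apart. An annotated pseudogene of Ccnd3 exists in the reference names, and reads that map to several places were not counted.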

How the data were processed

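The deposited files give, per the file headers, raw counts of read pairs for each gene of GENCODE M12, from featureCounts 1.5.1 with the reverse-strand setting and no option to count multi-mapping reads. Per the submitters' processing notes, the aligner was HISAT2 2.0.4, the build GRCm38, and featureCounts 1.4.6 and DESeq2 were used. The featureCounts version thus differs between these sources. The authors' deposited table of the comparison holds a mean level (signal), log2 fold changes, their SEs, a test score and p-values.

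Genes were filtered with filterByExpr of edgeR 4.0.16 (R 4.3.3, minimum count 10, minimum total 15) and tested with its quasi-likelihood test, TMM scaling, no covariate and Benjamini-Hochberg adjustment. SEs were derived from the F statistic, and 95% intervals from SEs and the total degrees of freedom, per gene and without adjustment over genes. The fit was checked on simulated data. Alternatives were DESeq2 1.42.0, limma-voom (limma 3.58.1), other scalings and filters, a replicate block, a 1.5-fold null and omission of each library. A reference table gave symbols for 49326 identifiers.

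The 8 genes and the gene lists were chosen with earlier results of these data known. The text names the 8 genes, Cebpb, Myod1, Myog, Mki67, up to 2 called genes per list and direction by adjusted p (else the 2 most abundant), and the gene most like each of the 8. One gene that this rule names is not reported here. Myc, Cdkn1b, Cdkn2c, Cdkn2d, E2f1, E2f6, E2f8, Mcm3, Top2a, Cenpe, Cenpf, Pparg and Cd68 were named after their values were seen. The promoter motifs were chosen after the windows were seen. Among the markers named by the rule, log2 fold changes were 0.60 (Myf5), 0.94 (Pax7), -1.42 (Itga7), -1.25 (Cdh15), 1.33 (Csf1r), 0.0018 (Kdr) and 5.34 (Fabp4).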

Additional observations from a re-analysis of the deposited data

How the results depend on the processing

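Of the comparisons of the 8 genes and Cebpb with an alternative setting, 95 kept direction and side of the threshold, 7 newly passed, 3 no longer passed and 3 changed sign. Against the 1.5-fold null 1259 genes were called, 2 of the 8 genes among them, and Ccnd1 (-0.72) and Rbl2 (0.41) did not pass. Cdk4 passed with DESeq2 (-0.30), limma-voom (-0.30), library totals (-0.32) and no low-count filter (-0.29). It did not pass with the size factors of DESeq2 (-0.30) or the 5 CPM filter (-0.28). Rbl1 changed sign with library totals (-0.017).

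With 1 library left out, 2493 to 3462 genes were called, Cdk4 lay between -0.36 and -0.24, Rbl1 between -0.059 and 0.061 and Rbl2 between 0.36 and 0.46. Called genes then numbered 1 to 3 for CDK inhibitors, 1 to 4 for E2F and DP factors, 1 to 2 for D cyclin and CDK4/6 regulators, 0 to 2 for later cyclins, 0 to 2 for E2F targets and 0 to 2 for mitotic genes, where the 2 were higher without empty vector replicate 2, and 2 to 12 over the 6 lists together, 2 being the count without C/EBPβ replicate 1. Where 1 library is left alone in its group, it is assumed to vary like the other group.

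The 1.5-fold null left 1 CDK inhibitor, 1 E2F factor, 0 regulators of D cyclins, 0 later cyclins, 0 E2F targets and 0 mitotic genes, 1 over the 6 cell cycle lists together. The filter of 5 CPM left 1 CDK inhibitor and 1 E2F target, no filter gave 1 E2F target and 2 mitotic genes, and DESeq2 gave 2 mitotic genes.

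Replicate numbers are shared between the groups, but with 2 pairs they are not shown to pair the samples (correlation of deviations 0.147 over genes). With the replicate number as a block, 4536 genes and 6 of the 8 were called, Cdk4 (-0.30) and Rb1 (-0.26) being added, with adjusted p = 0.0331 and 0.0455, and 2 mitotic genes. Myc was then called higher (0.27, adjusted p = 0.0338).

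Signs near 0 turned for Kdr (DESeq2 -0.087, limma-voom -0.056, library totals -0.014, replicate block -0.023) and Tob2 (no filter 0.0030, 5 CPM filter 0.010). With 1 library left out, log2 fold changes ran from -0.67 to 0.44 for Kdr, -0.066 to 0.052 for Tob2, -0.035 to 0.10 for E2f1, -0.17 to 0.13 for Top2a, -0.15 to 0.29 for Cenpe and -0.064 to 0.26 for Cenpf. The causes were not tested.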

Other observations

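Of the 12 mitotic genes, 6 were lower in empty vector replicate 1 than in replicate 2 and 6 were higher, so the libraries had no common direction over the list. The 4 genes given here were picked after their values were seen, all from the lower ones. Mki67 stood at 336 and 336 CPM in C/EBPβ libraries, against 238 and 331 CPM in empty vector libraries. The kinetochore motor Cenpe stood at 140.1 and 144 CPM in C/EBPβ libraries, against 116 and 157 CPM in empty vector libraries. Empty vector replicate 1 was the lowest of the 4 libraries for both, and also for the centromere protein Cenpf (145 and 149.8 CPM in C/EBPβ libraries, against 123 and 154 CPM in empty vector libraries). The topoisomerase Top2a showed the same order, with 561 and 597 CPM in C/EBPβ libraries, against 526 and 648 CPM in empty vector libraries. Without empty vector replicate 2, Mki67 and Cenpe were called higher in C/EBPβ cells by edgeR (log2 fold change 0.49, adjusted p = 0.0138, and 0.29, adjusted p = 0.0473). Without empty vector replicate 1 the log2 fold change of Cenpe was -0.15.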
